A study of Mus musculus with 9 samples.

Results

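The second week of weight loss was compared with the first by setting the WL2 libraries against the WL1 libraries, over every gene that reached 0.5 CPM (reads of the gene scaled to library size) in at least 1 of the 9 libraries. This rule kept 18510 of the 56748 genes in the count table. Wild-type male C57BL/6J mice, 8 weeks old at the start, were fed a high-fat diet (HFD) for 8 weeks (Pre). They were then switched to a standard diet for 1 week (WL1) or 2 weeks (WL2), and RNA from whole epididymal adipose tissue was sequenced in 3 libraries per group. All 3 groups carried the same history of 8 weeks of HFD, and no library from mice left on HFD for the further week was analysed here, so the additional week on standard diet and 1 additional week of age cannot be told apart. The labels do not say whether the libraries of a group came from separate mice, and p-values then measure only the spread between these libraries. Because the tissue was sequenced in bulk, fewer cells of a type and less RNA per cell cannot be told apart in any result.

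Epididymal fat is a visceral depot in which adipocytes store triglyceride among macrophages, fibroblasts, vessels and a mesothelial covering. When energy intake drops, noradrenaline acting on beta-adrenergic receptors drives lipolysis, adipocytes shrink, secretion of leptin declines with fat mass, and macrophages take up released lipid and the remains of dead adipocytes. Adipocytes also oxidise branched-chain amino acids in their mitochondria, and they sit in a collagen scaffold made by fibroblasts and, for the basement membrane around each cell, by the adipocytes themselves.

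Sequencing depth lay between 17798709 and 21694533 reads counted in genes for WL1 and between 16434450 and 17804883 for WL2, and no library was a copy of another. Adipocyte markers were abundant in every library, with Adipoq (adiponectin) at 1676 to 2358 CPM in WL1 and 2822 to 3459 CPM in WL2, while 16 of 20 genes of epididymis, testis and seminal vesicle stayed under the filter and the other 4 summed to at most 2.59 CPM in any library. WL2 replicate 1 lay nearer to WL1 than its group did. Its root mean square log2 difference from the WL1 libraries was 0.547 to 0.613, against 0.656 to 0.794 for WL2 replicates 2 and 3, where pairs within a group differed by 0.467 to 0.568. WL1 replicate 3 held the most macrophage RNA, with 11238 CPM summed over 20 macrophage genes against 5706 and 6923 CPM in the other WL1 libraries. In WL2 that sum was 6245 CPM in replicate 1 and 2935 and 3105 CPM in replicates 2 and 3. Transcripts of the mitochondrial genome took 1.86 to 2.03% of the reads in WL1 and 2.28 to 2.88% in WL2, without overlap (p = 0.1, exact permutation test, two-sided, the smallest p that 3 against 3 allows). The part of these differences between libraries in the gene results was not tested.

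Between the first and the second week, 681 of the 18510 genes passed the threshold (edgeR quasi-likelihood test, Benjamini-Hochberg adjusted p under 0.05), 3.68% of those tested. Of these, 439 genes fell (2.37%) and 242 rose (1.31%). The median change among called genes was 0.97 on the log2 scale in either direction, and 306 changed at least 2-fold, 94 upwards and 212 downwards. All 681 had no overlap between the 3 WL1 and the 3 WL2 libraries, a property shared by 30.3% of the genes tested (13.9% higher and 16.4% lower at WL2). Across all genes tested the median log2 fold change was -0.0014, with 9207 values above 0. The balance of directions depended on the scaling, because upper quartile factors gave 340 higher and 364 lower genes (48.3% higher) where the trimmed mean of M values (TMM) gave 35.5% higher, while the median of all genes moved by 0.06.

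**Figure D1:**
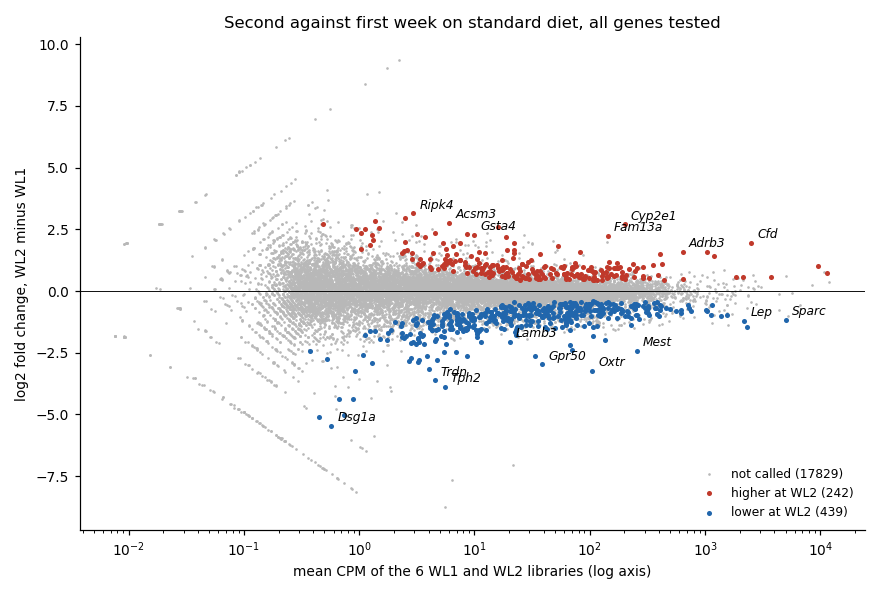
Each point is 1 of the 18510 genes tested, with its mean CPM over the 6 WL1 and WL2 libraries on the horizontal log axis and its log2 fold change (WL2 minus WL1) on the vertical axis. Red points (242) were called higher and blue points (439) lower at WL2; Oxtr, Mest and Gpr50 stand well below the cloud and Cyp2e1, Fam13a and Cfd above it.

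Calls followed the level of a gene. Of 1992 genes above 100 CPM, 161 were called (8.08%), against 10 of 3916 genes below 1 CPM (0.255%). Among 14751 protein-coding genes 208 rose and 429 fell, whereas among 2096 long noncoding RNAs 28 rose and 7 fell. Of 1102 transcription factor genes in the table's own annotation, 12 rose and 12 fell. Over all genes tested 1.31% rose and 2.37% fell. The rises of long noncoding RNAs and of transcription factors lay near the first share, and their falls lay below the second.

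The number of calls depended on single libraries. Without WL2 replicate 1 the count was 1347, and without WL2 replicate 2 it was 37. Leaving out WL2 replicate 3 gave 101 calls. Omitting WL1 replicate 1 gave 262, omitting replicate 2 gave 176 and omitting replicate 3 gave 127. Without Pre replicate 2, which enters only through the estimate of the spread, 1103 genes were called. The 37 genes left without WL2 replicate 2 were those called in each of the 9 fits, 27 lower and 10 higher, and every other called gene named here lost its call in that fit while keeping its direction.

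**Figure D2:**
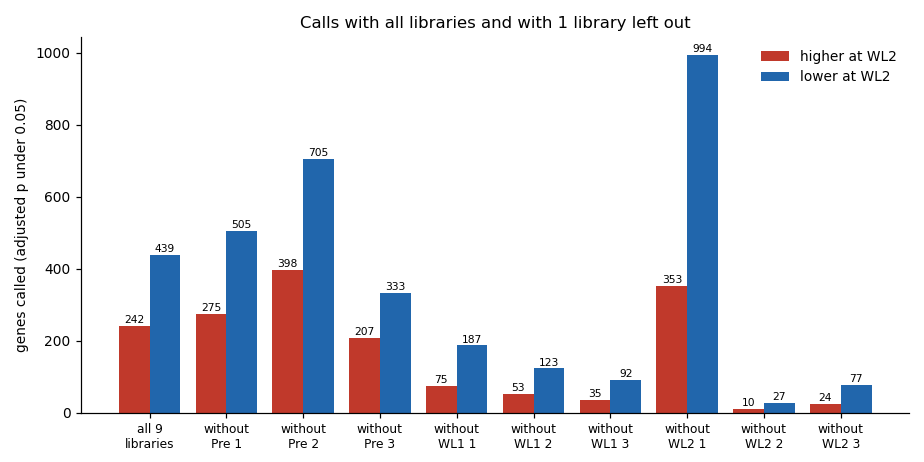
Bars give the number of genes called higher (red) and lower (blue) at WL2, with all 9 libraries and with the named library left out. The lower count stood at 439 with all libraries and ranged from 27 without WL2 replicate 2 to 994 without WL2 replicate 1.

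The 37 genes called in all 9 fits opened with Oxtr, the receptor for the hormone oxytocin. Oxtr measured 192, 210 and 169 CPM in WL1 and 19.3, 19.9 and 21.1 CPM in WL2, a separation far wider than the spread in either group. It fell by 3.24 on the log2 scale (SE 0.20, adjusted p = 0.000195), and its Pre mean was 227 CPM, so the level was near that of HFD at the first week and low only at the second. Gpr50, an orphan receptor of the melatonin receptor family, had 71.6, 60.9 and 74.1 CPM in WL1, above its Pre mean of 36.0 CPM, and 14.2, 4.87 and 7.12 CPM in WL2 (log2 fold change -2.97, SE 0.31, adjusted p = 0.00274). Lamb3, a laminin chain, dropped from 32.0, 39.4 and 26.8 CPM to 8.76, 7.59 and 7.18 CPM (log2 fold change -2.06, SE 0.19, adjusted p = 0.00136). Ccn5, a secreted matricellular protein, stood at 113, 87.2 and 154 CPM in WL1 and 26.8, 23.5 and 17.1 CPM in WL2 (log2 fold change -2.39, SE 0.26, adjusted p = 0.00332). Also in this set were Gas2l2, Pvalb and Ncan, with log2 fold changes of -3.15, -2.79 and -2.73 from WL1 means of 4.90 to 8.24 CPM. Ncan was not called by limma on log2(FPKM + 1) (adjusted p = 0.0534).

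Rises were fewer among the genes called in all 9 fits. Cyp2e1, a cytochrome P450 that oxidises ethanol and acetone, had 63.5, 38.2 and 58.4 CPM in WL1 and 227, 386 and 431 CPM in WL2 (log2 fold change 2.71, SE 0.26, adjusted p = 0.00214), against a Pre mean of 556 CPM. Its WL2 level thus lay between WL1 and Pre. Fam13a, a gene at a locus linked to fat distribution, had 62.6, 55.1 and 31.5 CPM in WL1 and 195, 264 and 247 CPM in WL2 (log2 fold change 2.24, SE 0.23, adjusted p = 0.00228), and its Pre mean was only 33.8 CPM. The alpha-class glutathione S-transferase Gsta4, which conjugates products of lipid peroxidation, rose from 4.13, 2.48 and 3.65 CPM to 13.6, 16.9 and 19.1 CPM (log2 fold change 2.28, SE 0.22, adjusted p = 0.00214). Gsta4 has close relatives, and how reads shared between them were counted is not stated.

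Of the 12 coding genes that rose most, Ripk4, a kinase of epithelial differentiation, led with 0.543, 0.551 and 0.675 CPM in WL1 and 3.07, 5.38 and 7.47 CPM in WL2. Its log2 fold change was 3.16 (SE 0.58, adjusted p = 0.0227, called in 4 of 9 fits). Acsm3, a medium-chain acyl-CoA synthetase, had 0.843 to 2.07 CPM in WL1 and 5.69 to 13.3 CPM in WL2 (log2 fold change 2.77, called in 7 of 9 fits). Fn3k, which removes sugar adducts from proteins, and Cldn10, a tight junction protein, had log2 fold changes of 2.29 and 2.19. They were called in 4 and 3 of 9 fits. Phyhip, Gm7609 and H4c1 were among the 12 with few reads: their WL1 libraries summed to 19, 20 and 20 reads, and the ratios of WL2 to WL1 were 7.23, 5.61 and 5.07 with 95% counting intervals of 4.44 to 12.4, 3.45 to 9.57 and 3.10 to 8.68. Gm7609 and the histone gene H4c1 belong to families of near-identical copies, so their counts are uncertain. Phyhip, Gm7609 and H4c1 were called in 4, 4 and 2 of 9 fits.

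The largest falls were steeper than the largest rises. Tph2, the rate-limiting enzyme of serotonin synthesis in neurons, had 5.65, 6.84 and 18.5 CPM in WL1 and 0.602, 0.567 and 0.927 CPM in WL2, while Pre averaged 48.2 CPM. Its log2 fold change was -3.87 (SE 0.64, adjusted p = 0.0149), and WL1 replicate 3 stood apart from the other WL1 libraries. Tph2 was called in 7 of 9 fits and not by limma on log2(FPKM + 1) (adjusted p = 0.0635). Trdn (triadin, a protein of calcium release in muscle) dropped from 5.92 to 11.7 CPM to 0.602 to 0.753 CPM (log2 fold change -3.61, called in 8 of 9 fits). Gys2, the liver-type glycogen synthase that adipocytes also express, had 4.94, 4.32 and 10.8 CPM in WL1 and 0.931, 1.19 and 1.04 CPM in WL2 (log2 fold change -2.65, SE 0.40, adjusted p = 0.0105). Lipf, a gastric-type lipase, had a log2 fold change of -2.79. Itgad, an integrin subunit of macrophages, fell from 4.13, 4.36 and 8.49 CPM to 1.04, 0.793 and 0.463 CPM (log2 fold change -2.87). Plppr4 summed to 132 reads in WL1 and 16 in WL2, a ratio of 0.132 with a 95% counting interval of 0.0734 to 0.223. These intervals cover counting error only. Lipf, Itgad and Plppr4 were each called in 4 of 9 fits and Gys2 in 7. Limma on log2(FPKM + 1) called neither Itgad nor Plppr4 (adjusted p = 0.129 and 0.441).

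**Figure D3:**
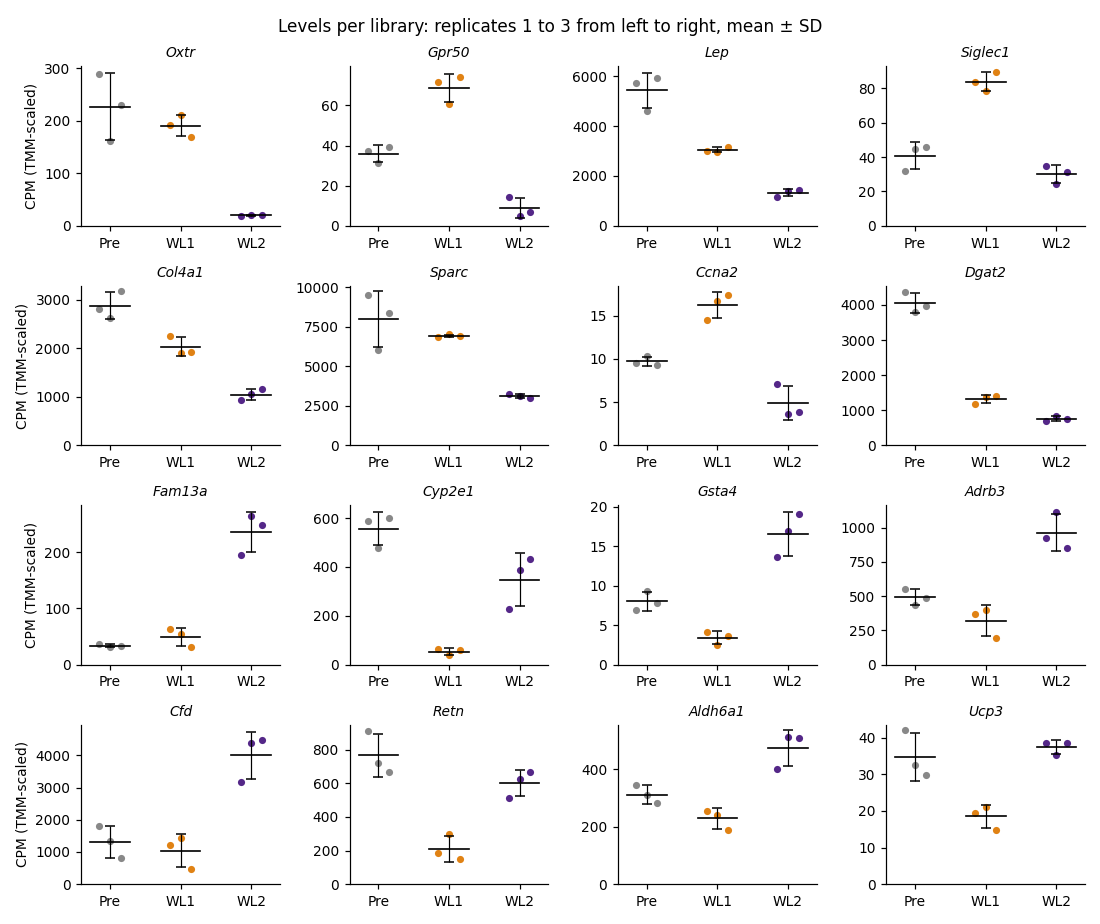
Each panel shows the TMM-scaled CPM of 1 gene in the 3 libraries of Pre, WL1 and WL2, with replicates 1 to 3 from left to right, the mean as a line and the SD as bars. The WL1 and WL2 points do not overlap in any of the 16 panels; Oxtr stays near its Pre level in WL1 and drops in WL2, whereas Fam13a and Cfd stand highest in WL2.

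The 5 noncoding genes with the largest change all rose. The RNA 2010016I18Rik had 6.08, 5.37 and 2.19 CPM in WL1 and 24.6, 30.0 and 27.9 CPM in WL2 (log2 fold change 2.59, SE 0.36, adjusted p = 0.00797). Gm44386, Gm10736, Gm38244 and Gm10076 followed with log2 fold changes of 2.56, 2.33, 2.29 and 1.93. Gm10736 is annotated as a processed pseudogene, and how reads shared with a parent gene were counted is not stated. Gm38244 is annotated as TEC, a type still to be tested by experiment. WL2 replicates 1 to 3 held 4.82, 5.44 and 12.4 CPM of Gm10736 and 20.4, 28.3 and 56.1 CPM of Gm10076. Strand was not stated for the counting, so reads of an overlapping gene on the other strand cannot be told apart from theirs.

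Genes of cell division were the list with the most calls. All 30 members were lower at WL2, 18 fell (background 2.37%) and none rose, with a median log2 fold change of -1.27 beside -0.0014 for all genes tested. Of the 30, 29 had no overlap between WL1 and WL2 (background 16.4%). Summed over the list, the libraries held 462, 527 and 554 CPM in WL1 and 322, 178 and 199 CPM in WL2, and Pre lay between at 339 to 384 CPM. Ccna2, the cyclin of S phase and G2, fell from 14.5, 16.7 and 17.4 CPM to 7.12, 3.57 and 3.88 CPM (log2 fold change -1.74, SE 0.24, adjusted p = 0.0077). Top2a, the topoisomerase that untangles replicated DNA, had 30.6, 38.3 and 36.7 CPM in WL1 and 14.9, 5.89 and 9.79 CPM in WL2 (log2 fold change -1.78, SE 0.32, adjusted p = 0.0203). Rrm2, a subunit of ribonucleotide reductase, and the mitotic proteins Cenpf and Tpx2 had log2 fold changes of -1.86, -1.79 and -1.66. Ube2c and Kif11, a ubiquitin-conjugating enzyme of the anaphase-promoting complex and a motor of the mitotic spindle, were called in all 9 fits. With WL2 replicate 1 omitted 26 members were called, with replicate 2 omitted 2, and with replicate 3 omitted 4. When a WL1 library was omitted, 8 (replicate 1), 6 (replicate 2) and 5 (replicate 3) members were called, beside 187, 123 and 92 lower genes in all. WL2 replicate 1 was the highest WL2 library of the list, as it was for the macrophage genes, and the part of macrophage content in the list was not tested.

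Promoters of dividing-cell genes are known for CCAAT boxes, bound by the factor NF-Y, and for the cell-cycle homology region TTTGAA, bound by repressor complexes in resting cells. The 250 bases upstream of the start are given for 4 members that fell, to show where these letters lie in genes that moved together. Sequences are from RefSeq on GRCm38.p6, 5′ to 3′ on the gene's strand, with CCAAT and TTTGAA on either strand (read as ATTGG and TTCAAA on the other) in capitals.
Top2a (chr11:99024190-99024439, minus strand): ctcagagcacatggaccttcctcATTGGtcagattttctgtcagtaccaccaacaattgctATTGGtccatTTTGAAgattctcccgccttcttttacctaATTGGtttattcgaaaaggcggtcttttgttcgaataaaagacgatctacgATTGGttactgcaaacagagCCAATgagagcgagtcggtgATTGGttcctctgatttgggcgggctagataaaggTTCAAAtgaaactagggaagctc
Ube2c (chr2:164769679-164769928, plus strand): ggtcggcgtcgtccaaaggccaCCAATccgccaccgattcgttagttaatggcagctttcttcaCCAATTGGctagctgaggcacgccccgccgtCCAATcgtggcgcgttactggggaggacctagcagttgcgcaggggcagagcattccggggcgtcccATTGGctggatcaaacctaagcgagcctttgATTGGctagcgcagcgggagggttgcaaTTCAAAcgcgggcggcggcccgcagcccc
Cdk1 (chr10:69352913-69353162, minus strand): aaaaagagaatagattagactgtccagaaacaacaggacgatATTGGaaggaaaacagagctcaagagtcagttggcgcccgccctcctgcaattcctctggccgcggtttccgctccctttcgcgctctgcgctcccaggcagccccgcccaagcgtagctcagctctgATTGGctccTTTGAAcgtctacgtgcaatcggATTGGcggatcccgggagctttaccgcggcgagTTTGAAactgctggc
Kif11 (chr19:37376132-37376381, plus strand): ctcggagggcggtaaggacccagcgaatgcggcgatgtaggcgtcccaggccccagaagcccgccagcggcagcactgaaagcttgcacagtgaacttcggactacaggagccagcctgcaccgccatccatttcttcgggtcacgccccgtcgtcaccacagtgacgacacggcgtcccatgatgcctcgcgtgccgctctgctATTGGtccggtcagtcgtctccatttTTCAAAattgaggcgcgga
The windows held 6, 6, 3 and 1 copies of CCAAT and 2, 1, 2 and 1 of TTTGAA, and in Ube2c a pair of CCAAT copies on opposite strands shared letters. Of the 18 members that fell, 14 had a window in the table, 13 of these held CCAAT (92.9%) and 8 held TTTGAA (57.1%). Among all 12525 genes tested here that had a window, CCAAT was found in 39.8% and TTTGAA in 13.7%. Both motifs occurred together in 8 of the 14 windows (57.1%) and in 5.13% of all. Over all 30 members tested, 25 had a window, of which 22 held CCAAT (88%) and 9 held TTTGAA (36%), each of these 9 with both motifs. A match of letters is a description and not a binding site.

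Adipocyte signalling genes moved in both directions. Adrb3, the adrenergic receptor of lipolysis in mouse fat, had 366, 401 and 193 CPM in WL1 and 923, 1117 and 852 CPM in WL2, above the Pre mean of 493 CPM in each WL2 library. It rose by 1.59 (SE 0.24, adjusted p = 0.0111) and was called in 8 of 9 fits. Of 26 tested genes of adrenergic and cAMP signalling 2 rose (background 1.31%) and none fell, and the median of the list was -0.02. The lipases themselves did not pass in edgeR: Pnpla2 (adipose triglyceride lipase) and Lipe (hormone-sensitive lipase) had log2 fold changes of 0.52 and 0.34 with adjusted p of 0.0861 and 0.189. Both were higher at WL2 without overlap (background 13.9%). DESeq2 called Pnpla2 (adjusted p = 0.0103) and not Lipe (adjusted p = 0.0827), and limma on log2(FPKM + 1) called neither.

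Lep, the hormone that reports fat mass to the brain, was high in WL1 at 3019, 2966 and 3170 CPM and low in WL2 at 1155, 1390 and 1440 CPM, while Pre averaged 5430 CPM. It fell by 1.20 (SE 0.14, adjusted p = 0.00368) in all 9 fits. Cfd, the protease adipsin of the alternative complement pathway, measured 1230, 1439 and 458 CPM in WL1 and 3160, 4393 and 4466 CPM in WL2 (log2 fold change 1.94, SE 0.40, adjusted p = 0.0311). It was called in 4 of 9 fits and not by limma on log2(FPKM + 1) (adjusted p = 0.0525). Retn, the adipocyte hormone resistin, rose from 187, 297 and 149 CPM to 515, 626 and 666 CPM (log2 fold change 1.51, SE 0.24, adjusted p = 0.0122). WL1 replicate 3 was the lowest library for Cfd, Retn and Adrb3 and the one with the most macrophage RNA, and the part of that in the rises was not tested. Rbp4, the retinol carrier, also rose (log2 fold change 0.81), and C1qtnf6 and Sfrp5 fell (-1.09 and -0.81). This made 3 rises (background 1.31%) and 3 falls (background 2.37%) among 22 adipokines. Without WL1 replicate 1 or 3, 1 of the rises and 2 of the falls were called, and without WL2 replicate 2 or 3 no rise and 1 fall. Adipoq was higher at WL2 by 0.66 without passing (adjusted p = 0.0743).

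Genes of lipid synthesis did not move as a block. Of 12 fatty acid synthesis enzymes and regulators, 10 were higher and 2 lower at WL2 (median 0.10), and 5 were higher without overlap (background 13.9%). The called members were 2 (background 1.31%). Thrsp rose from 155, 240 and 197 CPM to 382, 379 and 385 CPM (log2 fold change 0.95, SE 0.17, adjusted p = 0.0182). Acaca, acetyl-CoA carboxylase, rose from 63.5 to 80.7 CPM to 93.0 to 112 CPM (log2 fold change 0.50). Fasn, fatty acid synthase, had 480, 419 and 643 CPM in WL1 and 194, 321 and 449 CPM in WL2, with overlap and an adjusted p of 0.179. Dgat2, which makes triglyceride, fell from 1180, 1367 and 1404 CPM to 703, 829 and 742 CPM (log2 fold change -0.80, SE 0.12, adjusted p = 0.011), and Mogat2 fell too (-1.16) while Mogat1 rose (0.91). The desaturase Scd2 fell from 153 to 178 CPM to 70.8 to 94.8 CPM (log2 fold change -1.02). In cholesterol synthesis and uptake 18 of 23 genes were lower (median -0.37), and 2 fell (background 2.37%), among them Insig1, the sterol-regulated brake on SREBP, by 0.92 on the log2 scale. Without WL2 replicate 1, 8 cholesterol genes were called lower, without each WL1 library 1, and without WL2 replicate 2 none. Neither fatty acid synthesis gene was called without WL1 replicate 3 or without WL2 replicate 2 or 3.

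Of 20 transcription factors of lipogenesis and adipocyte identity, 3 rose (background 1.31%). Pparg, the master regulator of adipocyte differentiation, had 167, 162 and 139 CPM in WL1 and 206, 254 and 219 CPM in WL2 (log2 fold change 0.54, SE 0.13, adjusted p = 0.0456). Klf15 and Cebpd rose by 1.00 and 0.98. The call of Pparg was held in 3 of 9 fits, those of Klf15 and Cebpd in 6 and 4, and none of the 20 was called without WL1 replicate 2 or without WL2 replicate 2 or 3.

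Branched-chain amino acid breakdown was the metabolic list with the most calls. Of 24 members, 23 were higher at WL2, 8 rose (background 1.31%) and none fell, with a median log2 fold change of 0.45, and 21 had no overlap between groups (background 13.9%). The list summed to 2016, 2093 and 1797 CPM in WL1 and 2764, 3091 and 2970 CPM in WL2, and Pre lay at 2520 to 3014 CPM. Aldh6a1, which ends the valine branch, had 256, 242 and 189 CPM in WL1 and 402, 513 and 509 CPM in WL2 (log2 fold change 1.05, SE 0.15, adjusted p = 0.00862). Ivd, the dehydrogenase of the leucine branch, rose from 134, 129 and 101 CPM to 190, 250 and 251 CPM (log2 fold change 0.92, SE 0.16, adjusted p = 0.0187). Mccc2 and Mccc1, the subunits of methylcrotonyl-CoA carboxylase, rose by 0.70 and 0.59. Pccb, Hibadh, Echs1 and Bcat2 had log2 fold changes of 0.59 to 0.62. Only Bcat1, the cytosolic transaminase, was lower (-0.21, not passing). The count of called members was 13 without Pre replicate 2. It was 2 on omitting WL1 replicate 1, 3 on omitting replicate 2 and 1 on omitting replicate 3, and no member or 1 member was called on omitting WL2 replicate 2 or 3.

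Other mitochondrial genes shifted by small amounts. Of 76 nuclear genes of oxidative phosphorylation, 67 were higher at WL2 with a median of 0.18, and 2 rose (background 1.31%): Ndufs7 of complex I from 62.9, 81.5 and 73.8 CPM to 116, 113 and 100 CPM (log2 fold change 0.59) and Uqcrc2 of complex III by 0.44. The mitochondrial genome had 13 of 15 genes higher (median 0.50), and mt-Cytb and mt-Nd4 rose by 0.58 and 0.57. Limma on log2(FPKM + 1) called neither mt-Cytb nor mt-Nd4 (adjusted p = 0.267 and 0.129). In the citric acid cycle 20 of 24 genes were higher (median 0.22), with Idh2 and Idh3g passing. None of these 6 was called without any single WL1 library, nor without WL2 replicate 2 or 3.

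Fatty acid oxidation divided. Echs1 and Hadh, enzymes inside the beta-oxidation spiral, rose by 0.61 and 0.59, while Cpt1a, which admits long-chain fatty acids to mitochondria, fell from 196, 175 and 222 CPM to 132, 105 and 125 CPM (log2 fold change -0.71, SE 0.14, adjusted p = 0.025). Over the 28 genes of the list the median was 0.08. Ucp3, an uncoupling protein of the mitochondrial membrane, rose from 19.4, 21.1 and 14.9 CPM to 38.5, 35.3 and 38.6 CPM (log2 fold change 1.02, SE 0.16, adjusted p = 0.0133) and was the only 1 of 19 thermogenic genes to rise, where the list median was -0.63. In glycolysis Ldhb rose by 0.68 and Pfkfb4 fell by 0.93 on the log2 scale. In the pentose phosphate and NADPH list Pgd fell by 0.60 and Idh2 rose by 0.55. No gene of ketone body use and synthesis passed in edgeR (2 at an unadjusted p under 0.05, 1 by DESeq2 and 0 by limma), with Slc16a1, a carrier of lactate and ketone bodies, at 0.61 (adjusted p = 0.0861).

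Most fibrillar and collagen VI genes, and the leading basement membrane chains, were lower at WL2. Of 11 genes of collagen VI and the fibril-associated collagens 6 fell (background 2.37%) and none rose (median -0.71), of 9 fibrillar collagens 3 fell (median -0.78), and of 8 basement membrane collagens 3 fell although the list median was 0.06. Col16a1, which sits on the surface of fibrils, had 92.5, 86.0 and 90.2 CPM in WL1 and 38.5, 35.6 and 41.5 CPM in WL2 (log2 fold change -1.22, SE 0.10, adjusted p = 0.000907) and was called in all 9 fits. Col4a1 and Col4a2, the paired chains of the basement membrane network, fell together: Col4a1 from 2255, 1907 and 1930 CPM to 926, 1048 and 1161 CPM (log2 fold change -0.96, SE 0.13, adjusted p = 0.00753), and Col4a2 by 0.97. Col6a1, Col6a2 and Col6a3, the 3 chains of the main collagen VI fibre, fell by 0.71, 0.90 and 0.85 on the log2 scale. Col5a1, Col5a2 and Col5a3, which set the diameter of fibrils, fell by 0.97, 0.85 and 0.78.

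The abundant interstitial collagens did not pass in edgeR. Col1a1 had 725, 567 and 1101 CPM in WL1 and 444, 367 and 422 CPM in WL2 (log2 fold change -0.96, SE 0.25, adjusted p = 0.0591), and Col3a1 1645, 1526 and 2929 CPM and 1201, 1015 and 1080 CPM (-0.89, adjusted p = 0.0662). Both were separated between the groups, and in both WL1 replicate 3 lay well above the other WL1 libraries. DESeq2 called both (adjusted p = 0.00369 for Col1a1 and 0.00594 for Col3a1), and limma on log2(FPKM + 1) called neither (adjusted p = 0.0934 and 0.103). With WL1 replicate 1, 2 or 3 omitted, the collagen VI list had 3, 5 or 2 called members and the fibrillar list 2, 3 or 1. With WL2 replicate 1, 2 or 3 omitted, these counts were 5, 1 or 2 and 3, 0 or 2. The basement membrane collagens had 2 called without each WL1 library and 0 without WL2 replicate 2.

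Other matrix genes added single calls. Sparc, the collagen-binding glycoprotein osteonectin, dropped from 6846, 7018 and 6907 CPM to 3249, 3088 and 2978 CPM (log2 fold change -1.16, SE 0.16, adjusted p = 0.00753), narrow ranges in both groups, and was called in 8 of 9 fits. Hspg2, the basement membrane proteoglycan perlecan, fell by 1.01 from 2163, 1731 and 1639 CPM to 842, 862 and 1049 CPM. Lox, which cross-links collagen and elastin, fell by 0.78. Among collagen-modifying enzymes and processing proteases Adamts2, Colgalt1, Plod1 and Pcolce2 fell by 0.75, 0.74, 0.54 and 0.49 and P3h4 rose by 0.87. In this list 5 of 22 fell (background 2.37%) and 1 rose (background 1.31%), with a median of -0.09. Without WL2 replicate 2 none of these 22 was called, and 1, 1 or 0 of the falls were called with WL1 replicate 1, 2 or 3 omitted. Mmp2, a gelatinase, fell from 78.4, 61.6 and 130 CPM to 44.3, 49.1 and 43.1 CPM (log2 fold change -0.98), and Timp4, an inhibitor of metalloproteinases made by adipocytes, rose from 311, 263 and 230 CPM to 435, 615 and 664 CPM (1.09, SE 0.18, adjusted p = 0.0133). Mmp9, Mmp11 and Mmp14 did not pass (log2 fold changes 1.40, -0.50 and -0.56). In the TGF-beta list only the receptor Tgfbr1 fell (-0.84), with Tgfb1 at -0.79 (adjusted p = 0.0693).

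**Figure D4:**
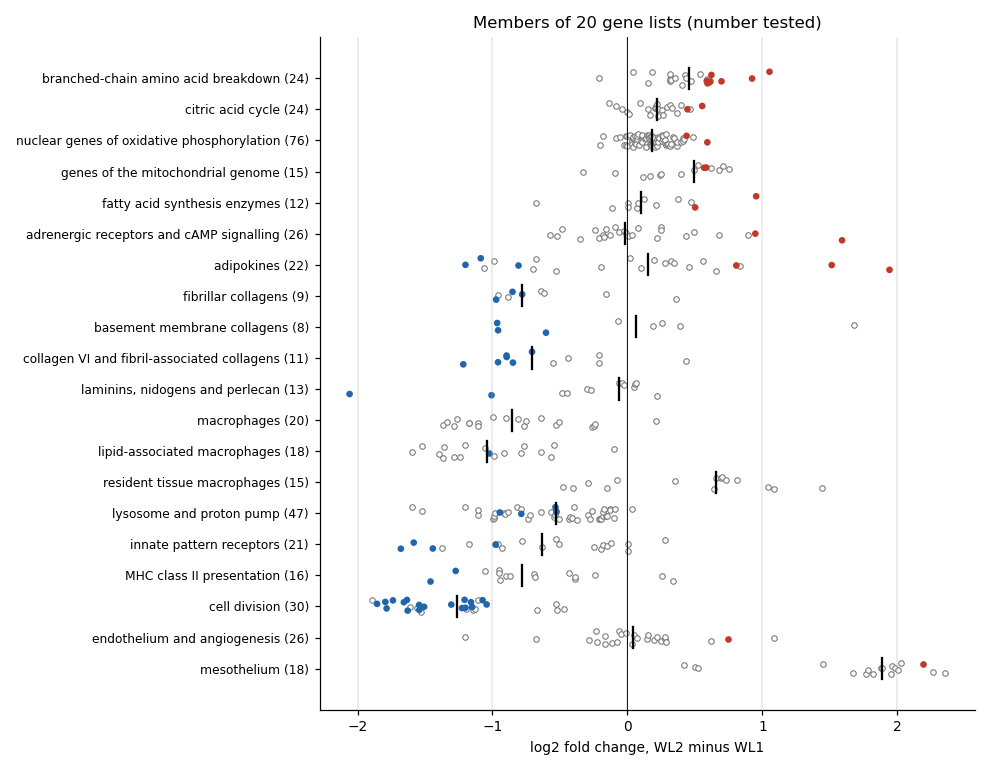
Each circle is 1 member of a gene list, placed by its log2 fold change (WL2 minus WL1), with called genes filled in red (higher) or blue (lower), others open, and the list median as a black bar. Cell division has all 30 members below 0 and branched-chain amino acid breakdown 23 of 24 above it, while the macrophage and mesothelium lists lie far from 0 with few filled circles.

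Macrophage genes were lower on average in WL2 with a wide spread between libraries. Of 20 macrophage markers 19 were lower, with a median of -0.86, and none was called by edgeR, where 13 had an unadjusted p under 0.05, DESeq2 called 2 and limma on log2(FPKM + 1) none. Adgre1, which encodes F4/80, had 225, 243 and 452 CPM in WL1 and 199, 89.8 and 93.5 CPM in WL2 (adjusted p = 0.095), so that WL2 replicate 1 was close to WL1. Itgax (CD11c) and Cd68 had log2 fold changes of -1.37 and -1.17 with WL2 replicate 1 at 178 and 362 CPM, and for Cd68 that library lay within the WL1 range of 335 to 648 CPM. Among 18 genes of lipid-associated macrophages all were lower (median -1.04) and Fabp5, a lipid chaperone, passed (log2 fold change -1.03, adjusted p = 0.0496). Limma on log2(FPKM + 1) did not call Fabp5 (adjusted p = 0.0540). Without WL2 replicate 1, 11 of the 20 and 16 of the 18 were called lower. Resident macrophage markers had 10 of 15 members higher without a call by edgeR (9 at an unadjusted p under 0.05, 3 by DESeq2 and 0 by limma), with Lyve1 at 41.8, 21.5 and 31.7 CPM in WL1 and 53.9, 63.7 and 83.9 CPM in WL2 (log2 fold change 1.09, adjusted p = 0.0594).

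Genes of innate immunity gave several calls. Siglec1, the sialic acid receptor CD169 of macrophages, had 83.6, 78.3 and 89.5 CPM in WL1 and 34.8, 24.3 and 31.3 CPM in WL2 (log2 fold change -1.48, SE 0.17, adjusted p = 0.00379) in all 9 fits. The Toll-like receptors Tlr8, Tlr1 and Tlr6 fell by 1.68, 1.58 and 0.98 on the log2 scale and the beta-glucan receptor Clec7a by 1.44. This made 4 of 21 pattern receptors lower (background 2.37%) and none higher (median -0.64). Ciita, the master activator of MHC class II, fell from 34.4, 31.3 and 44.7 CPM to 15.5, 13.5 and 11.1 CPM (log2 fold change -1.46, SE 0.23, adjusted p = 0.0122), and H2-DMb1, a peptide-loading chain, by 1.27. The chemokine receptor Ccr2 fell by 0.85, and Ccl2, a ligand of Ccr2, was lower by 1.20 without passing (adjusted p = 0.053). Tnf had 3.09, 3.17 and 3.88 CPM in WL1 and 1.26, 1.30 and 1.51 CPM in WL2 (log2 fold change -1.31, SE 0.26, adjusted p = 0.026). Sirpb1c, which has near-identical relatives and is therefore uncertain, fell by 2.13. With WL2 replicate 1 omitted 9 pattern receptors were called, and none with replicate 2 or 3 omitted. With a WL1 library omitted, 1 was called at most. The summed macrophage level was also lower on average at WL2, but in WL2 replicate 1 (6245 CPM) it lay in the WL1 range of 5706 to 11238 CPM. In that library Siglec1, Ciita and Tnf stood at 34.8, 15.5 and 1.26 CPM, below every WL1 library. The part of macrophage content in these genes was not tested.

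Lysosomal genes were lower at WL2, and as in the macrophage sum the highest WL2 library was replicate 1. Of 47 genes of the lysosome and its proton pump, 46 were lower at WL2 (median -0.53), and 4 fell (background 2.37%). Among these were Atp6v0a1, a pump subunit, by 0.95, Npc2, which moves cholesterol out of lysosomes, by 0.79, and the hydrolase Glb1 by 0.53. The summed level was 22901, 26507 and 36406 CPM in WL1 and 22293, 13728 and 13524 CPM in WL2. Without WL2 replicate 1, 22 of the 47 were called lower, and without WL2 replicate 2 none.

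**Figure D5:**
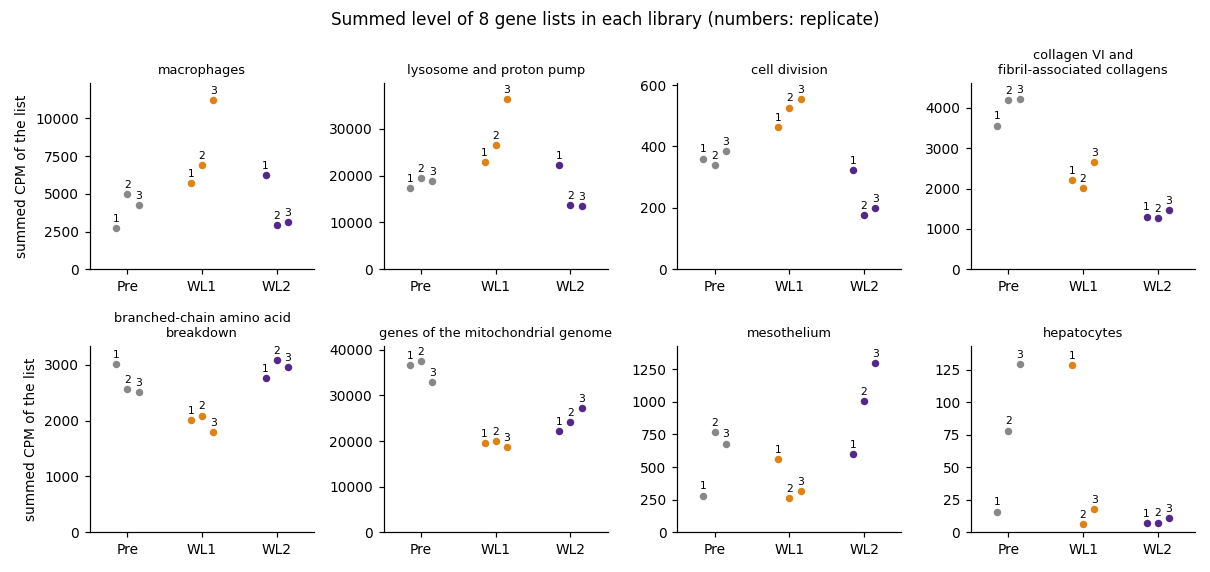
Each panel gives the summed CPM of a gene list in every library of Pre, WL1 and WL2, with the replicate number above the point. In the macrophage and lysosome panels WL2 replicate 1 lies at WL1 level, in cell division and branched-chain amino acid breakdown WL1 and WL2 do not overlap, and WL1 replicate 1 alone of the WL1 and WL2 libraries holds hepatocyte transcripts above 100 CPM.

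Mesothelial genes were higher at WL2 with a wide spread. All 18 were higher (median 1.89), yet only Nkain4 passed, with 9.34, 5.05 and 5.90 CPM in WL1 and 24.7, 27.6 and 40.0 CPM in WL2 (log2 fold change 2.19, SE 0.40, adjusted p = 0.0206). The list summed to 560, 265 and 314 CPM in WL1 and 600, 1009 and 1298 CPM in WL2, so that WL1 replicate 1 and WL2 replicate 1 were alike. Without Pre replicate 1, 4 members were called, and without WL1 replicates 2 or 3 or any WL2 library but replicate 1 none. Among the WL1 and WL2 libraries, hepatocyte transcripts were found mainly in WL1 replicate 1, which held 128 CPM over 16 genes against 6.6 to 17.8 CPM in the other 5, while Pre held 15.9, 78.1 and 129 CPM, and none passed in edgeR (12 at an unadjusted p under 0.05, 4 by DESeq2 and 0 by limma).

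Endothelial, stromal and muscle lists gave few calls. Pecam1, Cdh5 and Kdr of endothelium had log2 fold changes of 0.05, -0.11 and 0.04, and among 26 genes Vegfb alone rose, by 0.75. Of the progenitor and fibroblast list without collagens none of 24 passed in edgeR (median 0.14, 9 at an unadjusted p under 0.05, 5 by DESeq2 and 0 by limma), with Pdgfra at 54.8, 46.7 and 70.4 CPM in WL1 and 60.6, 56.8 and 64.3 CPM in WL2. In smooth muscle Synpo2 fell by 0.71 while Acta2 stood at 133 to 160 CPM and 155 to 198 CPM (adjusted p = 0.325). T cell and NK cell genes (median -0.33), B cell and immunoglobulin genes (0.63), neutrophil genes (0.54), lymph node and lymphatic genes (0.95) and interferon-stimulated genes (0.01) gave no call by edgeR or limma. At an unadjusted p under 0.05 stood 2, 1, 5, 1 and 4 of their members, and DESeq2 called 0, 0, 1, 1 and 4. The defining T cell markers Cd3e and Cd3d stayed below 1 CPM in all 6 libraries. Immunoglobulin Ighg2b was at 128 CPM in WL1 replicate 2 and below 1 CPM in the other 5.

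Signalling lists had isolated calls. In the growth hormone and IGF axis Igfbp6, a binding protein of IGF2, rose by 1.15 and Igfals and Igf2r fell by 0.99 and 0.68. The Wnt antagonists Wif1 and Sfrp5 and the feedback inhibitor Nkd1 fell, Wif1 from a sum of 107 reads to 16, a ratio of 0.163 with a 95% counting interval of 0.0899 to 0.277, and Nkd1 by 0.72. Maob, which breaks down monoamines, rose from 27.0, 29.6 and 24.6 CPM to 43.7, 59.5 and 54.3 CPM (log2 fold change 0.96, SE 0.14, adjusted p = 0.00945) in 8 of 9 fits. C2 of complement rose by 0.93, Cyp27a1, a sterol hydroxylase, by 0.57, Ear2 fell by 0.80 and Lmnb1, a nuclear lamin, by 0.67. The desmosomal cadherin Dsg1a gave 64 reads in WL1 and 1 in WL2, a ratio of 0.0170 with a 95% counting interval of 0.000425 to 0.0984, from a gene with near-identical relatives. No gene of lipolysis and lipid droplets, insulin signalling, immediate early response, glucocorticoid response, endoplasmic reticulum stress, iron handling or caveolae passed in edgeR or in limma, with Fkbp5 at 0.86 (adjusted p = 0.0934) and Fos at -1.41 (adjusted p = 0.0532) among the members named. At an unadjusted p under 0.05 stood 8, 9, 7, 6, 4, 8 and 3 members of these lists in turn, and DESeq2 called 2, 3, 3, 2, 1, 6 and 1. Without WL2 replicate 1, 3 genes of lipolysis and lipid droplets, 3 of the immediate early list, 3 of iron handling and 1 of endoplasmic reticulum stress were called lower. In the same fit 1 gene of insulin signalling and 1 of iron handling were called higher.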

How the data were processed

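Whole epididymal adipose tissue of 3 groups (Pre, WL1 and WL2, 3 libraries each) was sequenced as bulk RNA. The authors deposited a table of raw read counts per gene and one of FPKM values. The submitters' processing notes name HISAT2 and the builds GRCm38 and mm10, without versions. The counting tool, strand setting and treatment of shared reads were not stated. Of 52073 genes shared with GENCODE M21 (GRCm38), 1472 had the same coordinates, so the coordinates of the count table are not printed.

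Counts were tested with edgeR 4.0.16 in R 4.3.3 (TMM factors, quasi-likelihood test, all 9 libraries in 1 fit, contrast WL2 minus WL1, Benjamini-Hochberg adjustment over 18510 genes, threshold 0.05) after the filter of 0.5 CPM in at least 1 library. The paper's study used the same CPM limit. Levels are TMM-scaled CPM. SE denotes the standard error of the log2 fold change and SD the standard deviation.

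Members were described through 64 gene lists with 1382 names, of which 1379 were in the table and 74 did not pass the filter. The comparison and the lists were chosen with earlier results of these data known. Named genes were the 12 largest called rises and 12 largest called falls among protein-coding genes of at least 1 CPM without overlap, the 5 largest noncoding changes by the same rule, up to 5 called members per list with any called against the list median (with none called, up to 2 members), genes measured by PCR in the study, and cell markers. Other genes called in all 9 fits were named after their values were seen. Promoter letters came from RefSeq windows on GRCm38.p6, both strands. Alternatives were other filters, scalings, samples, DESeq2 1.42.0, limma 3.58.1 on log2 of the deposited FPKM plus 1 or 0.1, a replicate block and leaving out each library. Some genes that the rule selects are not reported here.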

Additional observations from a re-analysis of the deposited data

How the results depend on the processing

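Against 681 called genes (242 higher, 439 lower), the count was 1668 (509 higher, 1159 lower) without a filter on low counts, 1935 (738 and 1197) with DESeq2, and 1051, with 415 higher, when only the WL1 and WL2 libraries were fitted. Leaving out 1 library gave 37 to 1347 calls, 10 to 398 higher and 27 to 994 lower. The highest number of higher calls came without Pre replicate 2 and the other upper ends without WL2 replicate 1. A stricter filter (782), RLE factors (673), upper quartile factors (704), library totals alone (692), scaling without mitochondrial genes (679) and limma on log2(FPKM + 1) or log2(FPKM + 0.1) (537 and 546) stayed within 1.5 times. The causes were not tested. Some genes called by edgeR, among them Pparg, Acaca, Sfrp5, Pfkfb4, Phyhip and Gm7609, were not called by limma on log2(FPKM + 1). Their adjusted p there lay between 0.0513 and 0.0797. Replicate numbers did not pair the libraries: the deviations of same-numbered WL1 and WL2 libraries correlated at -0.277, 0.033 and -0.104, and a replicate block gave 330 calls (125 higher, 205 lower). No named gene called in the main fit reversed its direction under any alternative run. Named genes that were not called were not part of this check. Some of them changed sign when 1 library was left out, such as Alb (log2 fold change -2.09, at most 0.37) and S100a9 (0.54, at least -1.58). Below 1 CPM, 10 of 3916 genes were called.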

Other observations

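Several families were put together after their values were seen, and some of their genes, such as Igf2r and Kif11, were already counted in the lists above. Their counts are a description, beside 1.31% of all genes tested called higher and 2.37% called lower. A cluster of imprinted genes, expressed from 1 parental copy, stood out. Mest, long known as a marker of expanding fat, fell from 432 ± 4.72 CPM (SD, n = 3) in WL1 to 80.4 ± 16.6 CPM in WL2 (log2 fold change -2.43, edgeR adjusted p = 0.000228), and Pre averaged 722 CPM. Its neighbours Copg2 and Klf14 fell with it, by 0.98 and 1.66 on the log2 scale, and all of these were called in each of the 9 fits. Copg2 lies next to Mest, and reads from overlapping transcripts cannot be told apart. Peg10 fell by 1.84 and Igf2r by 0.68, and Plagl1 rose by 0.98, which made 5 falls and 1 rise among 34 imprinted genes tested, with a median of 0.07. Peg3, Meg3, Dlk1 and H19 did not pass.

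Enzymes that handle foreign and reactive compounds gave calls in both directions. Of 18 glutathione S-transferase genes 6 rose and 1 fell (median 0.64). Gsta3 rose from 23.3 ± 5.26 to 82.9 ± 22.3 CPM (log2 fold change 1.83, adjusted p = 0.00433), Gstt1, Gstm5, Gstk1 and Gstp1 rose by 0.97, 0.74, 0.70 and 0.69, and Gstm1 fell by 0.57. Gpx3, the secreted glutathione peroxidase, rose from 639 ± 106 to 1731 ± 157 CPM (log2 fold change 1.44, adjusted p = 0.00641) in all 9 fits. Of 9 carboxylesterases 6 were lower and 3 higher (median -0.69), and those called were Ces1d and Ces1f, which rose by 1.60 and 1.57. The 6 lower genes had WL1 means of at most 1.74 CPM. Of these, Ces3a and Ces1c gave 95 and 90 reads in WL1 replicate 1, at most 2 in the other WL1 libraries and 0 in WL2. WL1 replicate 1 also held the most hepatocyte transcripts of the WL1 and WL2 libraries, and the part of that was not tested. Of 6 flavin-containing monooxygenases Fmo1 rose by 0.86. These families have near-identical members, and how shared reads were divided is not known here.

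Other genes called in all 9 fits were of mixed function. Mrc2, a collagen receptor that takes collagen into fibroblasts, fell from 219 ± 16.2 to 55.5 ± 10.8 CPM (log2 fold change -1.98, adjusted p = 0.000407), and Slc5a7, the choline transporter of cholinergic neurons, from 58.1 ± 6.92 to 9.40 ± 3.27 CPM (-2.63). Kcnj14, Atp1a4, Duoxa1, Map1a, Kif21b, Chaf1a, Orm1, Ptov1, Serpinf1 and Itga7 fell as well, with log2 fold changes between -2.62 and -0.89. Crls1, which makes the mitochondrial lipid cardiolipin, rose from 50.3 ± 3.79 to 102 ± 7.16 CPM (log2 fold change 1.02, adjusted p = 0.00223). Asns (asparagine synthetase), Sqor (sulfide oxidation), Sfxn1 (mitochondrial serine import) and Hspb8 (a small heat shock protein) rose by 1.02, 1.12, 0.87 and 0.82. Of 38 kinesin genes 7 fell and none rose, and of 6 subunits of the MCM helicase 3 fell. Kif11, Mcm2 and Mcm5 among these falls were also members of the cell division list, so these counts partly repeat that list.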
